A study of Homo sapiens with 4 samples.

Results

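The genes described here are 37 hypoxia-inducible and glycolytic genes, taken by symbol from a list chosen with earlier results of these data known. The list holds hypoxia-inducible factor (HIF) regulators, HIF targets and enzymes of glycolysis. All 37 matched a row among the 25343 genes of both deposited tables. They were read in roles: 4 HIF regulators, 12 signalling and stress targets, 5 genes of glucose transport and flux control, and 16 glycolytic enzymes. RNA sequencing covered 4 libraries, 1 per group, so a difference within a line has no replicate check and no p-value. The C4-2B ENZR control and the C4-2B ENZR MAOA knockdown come from an enzalutamide-resistant prostate cancer line kept in 20 µM enzalutamide, a drug against the androgen receptor. The LNCaP control and the LNCaP MAOA knockdown come from a prostate cancer line whose medium had no enzalutamide. Every group was infected with lentivirus carrying a hairpin RNA and was selected with antibiotic. The controls received a non-targeting hairpin and the knockdowns a hairpin that targets the coding sequence of MAOA, which encodes monoamine oxidase A. Cells grew at 10% serum, and the labels give no oxygen level. The knockdowns are selected populations, the labels do not say that the hairpin was the same in both lines, and the sequencing lane in the labels differs between the lines but not within one, so line and lane cannot be told apart.

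When oxygen is plentiful, prolyl hydroxylases of the EGLN family mark the HIF alpha proteins, made from HIF1A and EPAS1, for destruction by the VHL ubiquitin ligase. When oxygen is short the alpha proteins persist, pair with ARNT and bind the letters ACGTG or GCGTG, the core of the hypoxia response element, near their target genes. Targets include growth factors, mitophagy receptors, collagen hydroxylases, glucose transporters and most enzymes of glycolysis, the pathway from glucose to pyruvate and lactate. Because the alpha subunits are controlled mainly as proteins, their transcript levels do not report HIF activity.

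The core letters were looked up in the 250 bases before each gene start, in RefSeq's promoters of the GRCh38.p14 build. Of the 37 genes 32 matched, and VEGFA, NDRG1, BNIP3L, NDUFA4L2 and SLC2A3 did not. At least 1 match to ACGTG or GCGTG on either strand was held by 35 of the 58 windows of these genes (60.3%), against 43.2% of all 35116 windows. ACGTG alone, on either strand, was in 37.9% of the genes' windows and in 18.5% of all windows. Matches are descriptions of letters and not binding sites. The windows below are shown because the letters occur both before genes that rose with the knockdown in the results that follow (P4HA1, MXI1 and BNIP3) and before genes that did not pass (PGK1 and LDHA). Capitals mark the matches, which overlap where ACGTG reads on both strands, and each is written 5′ to 3′ on the strand of the gene.
P4HA1, chr10:73096867-73097116, minus strand: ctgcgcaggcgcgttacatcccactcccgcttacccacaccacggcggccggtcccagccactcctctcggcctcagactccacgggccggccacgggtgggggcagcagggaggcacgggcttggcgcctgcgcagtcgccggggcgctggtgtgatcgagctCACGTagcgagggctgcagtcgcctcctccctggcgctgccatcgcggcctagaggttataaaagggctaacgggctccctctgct
MXI1, chr10:110209981-110210230, plus strand: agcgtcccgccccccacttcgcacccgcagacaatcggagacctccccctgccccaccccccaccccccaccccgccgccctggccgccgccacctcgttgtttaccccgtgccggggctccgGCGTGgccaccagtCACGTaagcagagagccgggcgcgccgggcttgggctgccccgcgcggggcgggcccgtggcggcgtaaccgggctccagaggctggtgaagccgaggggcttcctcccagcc
BNIP3, chr10:131981924-131982173, minus strand: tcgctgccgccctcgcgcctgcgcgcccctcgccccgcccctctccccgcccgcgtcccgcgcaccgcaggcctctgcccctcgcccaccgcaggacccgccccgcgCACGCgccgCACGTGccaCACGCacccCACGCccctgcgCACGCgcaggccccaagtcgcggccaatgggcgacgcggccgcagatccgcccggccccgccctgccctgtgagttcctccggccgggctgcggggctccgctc
PGK1, chrX:78103998-78104247, plus strand: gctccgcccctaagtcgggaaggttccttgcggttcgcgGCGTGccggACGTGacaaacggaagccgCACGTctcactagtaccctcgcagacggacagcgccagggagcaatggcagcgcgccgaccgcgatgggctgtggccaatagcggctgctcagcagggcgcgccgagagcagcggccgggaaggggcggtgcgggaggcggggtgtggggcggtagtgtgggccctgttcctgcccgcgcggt
LDHA, chr11:18394313-18394562, plus strand: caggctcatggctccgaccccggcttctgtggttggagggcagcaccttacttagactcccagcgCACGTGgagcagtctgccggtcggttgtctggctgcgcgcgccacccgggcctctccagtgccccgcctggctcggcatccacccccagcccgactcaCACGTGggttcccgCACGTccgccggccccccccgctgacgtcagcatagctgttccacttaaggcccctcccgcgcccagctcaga
P4HA1 has 1 match, 86 bases before its start. MXI1 has 2 matches in this window and 3 windows in the table. BNIP3 has 6 matches, between 143 and 104 bases before its start, PGK1 has 3 and LDHA 5. All windows of genes that rose and matched were read together: 8 of 10 windows (80.0%) held a match, against 23 of 44 (52.3%) for genes that were tested and did not pass. Counted by gene, a match was held by 6 of 6 that rose and by 17 of 22 (77.3%) that did not pass. Over all 27305 genes with a promoter the share was 47.4%, so both sets lay above it. No test was made of either difference, and several windows belong to the same gene, so genes with many windows weigh more in the first.

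Values are deposited CPM, read counts relative to library size with TMM scaling (a trimmed mean of log ratios). A pair of levels in a line, written as X to Y, gives the control library and then the knockdown library of a line. The effect of the knockdown is the log2 ratio of both values after adding 1 to each, so that changes of low genes are understated. Recovered depths were between 23479051 and 52550452 reads per library, and the 3 reads that an unseen gene could still have equal between 0.0529 and 0.122 CPM. Intervals given for a ratio are exact 95% counting intervals without the pseudocount and cover counting error only. The knockdown was visible in the labelled target, with MAOA at 66.8% of the control CPM in C4-2B ENZR and 31.3% in LNCaP. All 10 prostate luminal markers looked up were at 1 CPM or more in all 4 libraries, but KLK3, which encodes prostate-specific antigen, stood at only 3.72 to 6.34 CPM in C4-2B ENZR. Of 12 markers of other cell types, between 4 and 6 reached 1 CPM in a library, the list summed to 65.3 to 73.3 CPM for C4-2B ENZR and to 89.8 to 108 CPM for LNCaP, and most of each sum was COL1A1 (44.4 to 52.9 CPM for C4-2B ENZR, 54.2 to 60.9 CPM for LNCaP), whereas COL1A2, the other collagen I gene, was at 0 in all 4. The LNCaP table is shifted as a whole: genes averaging at least 10 CPM had a median log2 ratio of 0.13 there and of -0.01 in C4-2B ENZR. LNCaP ratios are therefore also given relative to that median, and levels are not compared between the tables, which were normalized separately.

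Of the 8 signalling and stress targets that could be tested, 7 rose in the MAOA knockdown, whereas most enzymes of glycolysis stayed near the median of all genes. In bulk RNA, more cells with a transcript and more of it per cell cannot be told apart. The growth factor gene VEGFA was the clearest case, close to 2-fold higher in each line. In the test over both lines 9 of the 33 genes that could be tested rose and none fell. The 9 include NDUFA4L2, which entered in C4-2B ENZR through its knockdown library alone, and 8 rose among genes averaging at least 5 CPM. Of the 9, 7 were signalling and stress targets, 1 was the flux-control kinase gene PDK1 and 1 the glycolytic enzyme gene ALDOC. HIF1A and its hydroxylase genes did not pass. The test was limma, with line as a block, over the 13110 genes averaging at least 1 CPM in both tables, adjusted by Benjamini-Hochberg over all of them. In it 4.27% of all genes rose and 1.5% fell, and 27.3% of the 33 genes rose. The genes were chosen with earlier results of these data known, so the higher share is a description and not a test of the list. The balance over all genes depends on the scaling, at 560 rises and 197 falls as deposited, 578 and 541 after centring, and 309 and 585 after rescaling to the same sum, whereas the 37 genes gave 9, 9 and 8 rises with no fall. Without adjustment 11 of the 33 rose and none fell at limma p below 0.05. The share of all genes below that unadjusted p was not counted, here or for the lists that follow. Such unadjusted counts therefore have no background to be read against. With TMM recomputed, edgeR called 5 rises (1.32% of all genes) and no fall. The lines serve as the replicates here, and the test takes its spread from a prior of 372 degrees of freedom shared by all genes, so its p-values mostly weigh the size of the mean ratio.

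**Figure D1:**
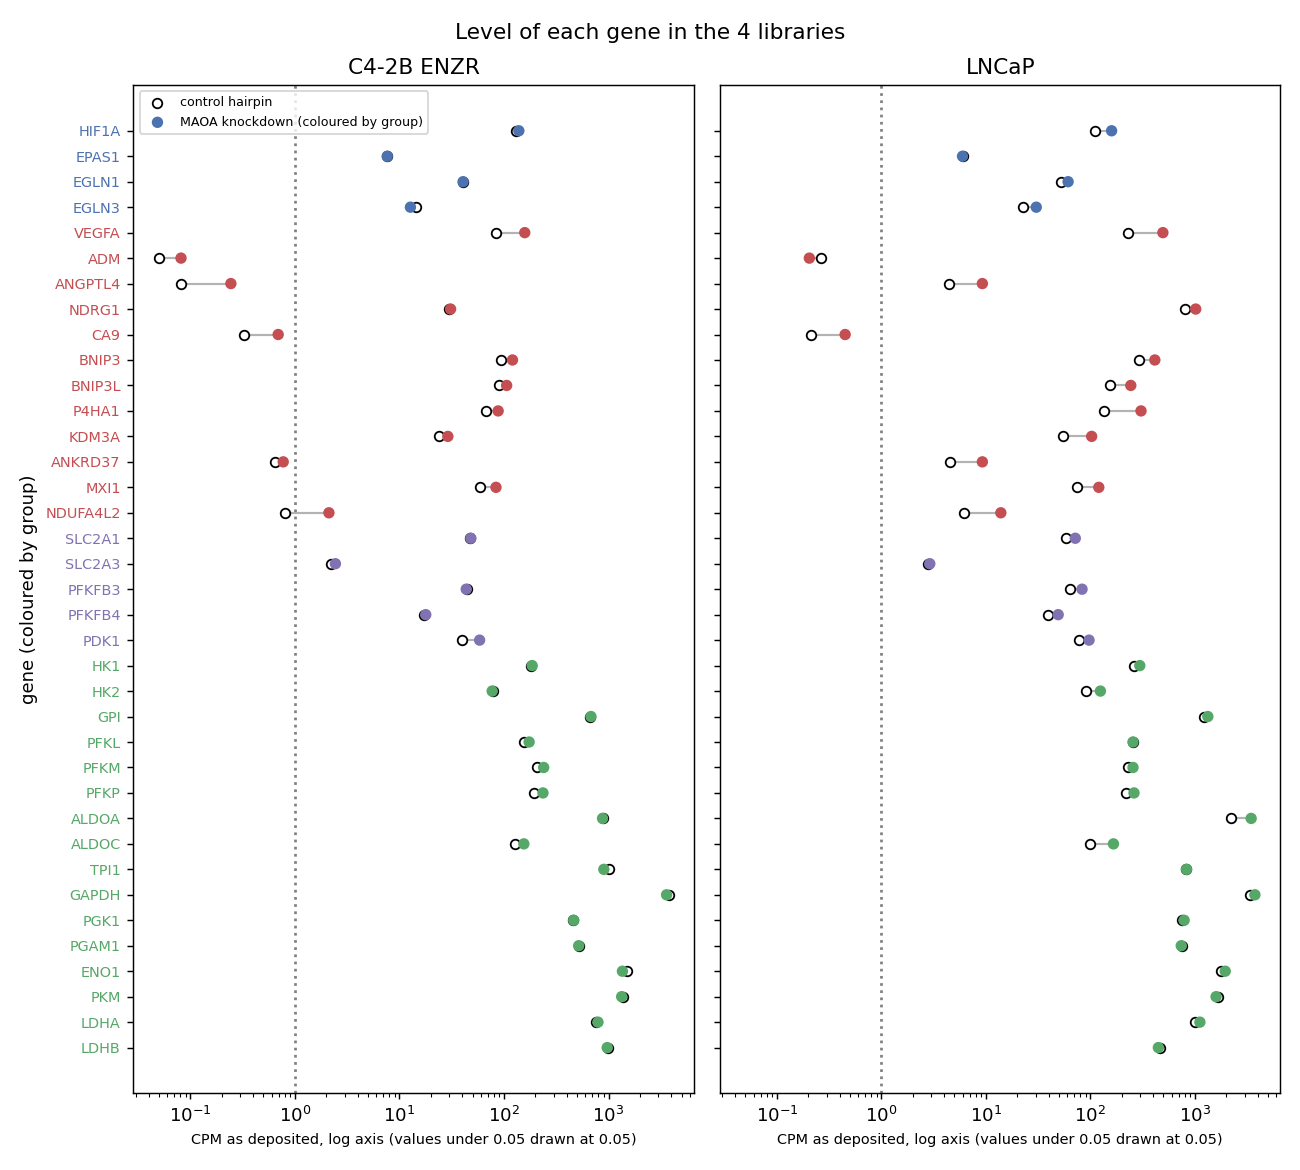
CPM of each of the 37 genes (log axis) in the control (open circle) and MAOA knockdown (filled circle, coloured by role) of C4-2B ENZR, left, and LNCaP, right, 1 library each. Among genes with a mean of at least 1 CPM, the filled circle lies farthest to the right of the open one for NDUFA4L2 and VEGFA in C4-2B ENZR. In LNCaP it does so for P4HA1, NDUFA4L2 and VEGFA. The circles of most glycolytic enzymes overlap.

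Among the HIF regulators, no transcript passed. HIF1A, the alpha subunit found in most cells, was at 130 to 139 CPM in C4-2B ENZR and at 110 to 159 CPM in LNCaP. It was nearly level in the former line (log2 ratio 0.10) and higher in the latter (0.54, interval 0.49 to 0.59, and 0.40 relative to the line median), and its mean of 0.32 did not pass (limma adjusted p = 0.118). EPAS1, which encodes the related HIF-2 alpha subunit, was at 7.60 to 7.64 CPM in C4-2B ENZR and 5.99 to 5.98 CPM in LNCaP. These pairs cannot be told apart at between 188 and 340 reads per library (intervals -0.29 to 0.31 and -0.23 to 0.23).

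EGLN1, the main oxygen-sensing prolyl hydroxylase, was at 40.8 to 40.6 CPM in C4-2B ENZR and 52.2 to 61.1 CPM in LNCaP (log2 ratio 0.23, and 0.09 relative to the median). EGLN3, a hydroxylase that is itself a HIF target, was at 14.5 to 12.7 CPM in C4-2B ENZR (log2 ratio -0.18, with an interval that includes 0) and at 22.9 to 30.3 CPM in LNCaP (0.39, interval 0.30 to 0.51). Neither gene passed (limma adjusted p = 0.715 and 0.762). As a share of EGLN1 and EGLN3 reads, EGLN3 was 26.2% in the control and 23.9% in the knockdown of C4-2B ENZR, and 30.5% and 33.2% in LNCaP, with overlapping 95% Clopper-Pearson intervals in each line.

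Of 13 further genes of oxygen sensing, among them VHL, ARNT and the asparagine hydroxylase gene HIF1AN, none passed limma, and 1 rose at unadjusted p below 0.05. Their median log2 ratios, 0.05 for C4-2B ENZR and 0.21 for LNCaP, compare with 0.00 and 0.11 for all genes averaging at least 1 CPM. VHL was at 180 to 190 CPM in C4-2B ENZR and 140 to 163 CPM in LNCaP. Among genes averaging at least 5 CPM in both lines the highest mean ratio was that of SIAH1, a ubiquitin ligase gene (18.8 to 20.0 CPM, and 19.8 to 28.5 CPM), and the lowest that of HIF1AN (64.9 to 57.1 CPM, and 47.1 to 42.8 CPM).

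The secreted factors were led by VEGFA, which encodes the vascular endothelial growth factor. VEGFA was at 84.2 to 158 CPM in C4-2B ENZR (log2 ratio 0.90, interval 0.83 to 0.99) and at 229 to 493 CPM in LNCaP (1.11, interval 1.08 to 1.14). The knockdown library was higher in each line by a similar ratio, and 0.97 relative to the median in LNCaP. VEGFA rose over both lines (mean log2 1.00, SE 0.13, limma adjusted p = 3.46e-11; edgeR with recomputed TMM, adjusted p = 0.00103). ANGPTL4, a secreted inhibitor of lipoprotein lipase, had only 2 to 6 reads in C4-2B ENZR, but in LNCaP it was at 4.41 to 9.25 CPM (log2 ratio 0.92, from 250 to 452 reads). ADM, the gene of the vasodilator adrenomedullin, was near the floor in all libraries, with 0 to 2 reads in C4-2B ENZR and 15 to 10 reads in LNCaP.

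Of the mitophagy genes, BNIP3 and BNIP3L encode related receptors in the outer mitochondrial membrane. BNIP3 was at 94.5 to 121 CPM in C4-2B ENZR (log2 ratio 0.35) and 289 to 413 CPM in LNCaP (0.51, or 0.38 relative to the median). BNIP3L was at 88.8 to 106 CPM in C4-2B ENZR (0.25) and 155 to 243 CPM in LNCaP (0.65, or 0.52). Both were higher in the knockdown of each line and rose in limma (adjusted p = 0.0215 and 0.0113), but neither passed in edgeR with recomputed TMM (0.0690 and 0.0685) or in DESeq2 (0.0715 and 0.0903). A processed copy, BNIP3P1, holds most of the 10.7% of BNIP3's 50-base words that recur in another GENCODE gene, and 0.121% recur in a gene named in the tables.

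Among the targets tested, the collagen prolyl hydroxylase gene P4HA1 and the histone demethylase gene KDM3A had ratios that differed most between the lines. P4HA1 was at 67.3 to 87.9 CPM in C4-2B ENZR (log2 ratio 0.38, interval 0.29 to 0.48) and at 134 to 305 CPM in LNCaP (1.18, interval 1.15 to 1.23). KDM3A was at 23.9 to 29.03 CPM (0.27, interval 0.12 to 0.44) and at 55.2 to 103 CPM (0.88, interval 0.83 to 0.96). Each was higher in both knockdowns, with counting intervals that do not overlap between the lines, and 4 libraries leave no residual degrees of freedom to test that difference. Both rose (limma mean log2 0.78 and 0.58, adjusted p = 3.88e-07 and 0.000708; edgeR with recomputed TMM 0.0204 and 0.0426), but in DESeq2 KDM3A missed the threshold (adjusted p = 0.0520).

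MXI1, a MAX-binding antagonist of MYC, was at 58.7 to 83.8 CPM in C4-2B ENZR (log2 ratio 0.51) and 73.7 to 120 CPM in LNCaP (0.70, or 0.56 relative to the median), and rose (mean 0.60, limma adjusted p = 0.000157). MYC itself was at 248 to 321 CPM in C4-2B ENZR and at 382 to 357 CPM in LNCaP. NDUFA4L2, a mitochondrial protein gene known for strong induction by HIF, was at 0.809 to 2.11 CPM in C4-2B ENZR from 20 and 52 reads, so it met the minimum through its knockdown library. In LNCaP it was at 6.22 to 13.9 CPM (log2 ratio 1.04, interval 0.97 to 1.35), and it rose over both lines (mean 0.91, limma adjusted p = 3.44e-05).

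NDRG1, a growth-arrest gene that answers to hypoxia and also to androgen, was the 1 target of the 8 tested that did not pass. It was at 29.9 to 30.8 CPM in C4-2B ENZR and at 806 to 1017 CPM in LNCaP (log2 ratio 0.33, or 0.20 relative to the median; limma adjusted p = 0.447). CA9, the carbonic anhydrase gene widely used as a hypoxia marker, stayed below 1 CPM throughout, with 8 to 17 reads in C4-2B ENZR and 12 to 22 reads in LNCaP. ANKRD37 was below 1 CPM in C4-2B ENZR (16 to 19 reads) and at 4.53 to 9.25 CPM in LNCaP (0.89). ADM, CA9, ANGPTL4 and ANKRD37 are the 4 of the 37 genes that could not enter the test over both lines.

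As a group, 8 of the 12 targets had a mean of at least 1 CPM in C4-2B ENZR, with log2 ratios from 0.04 to 0.90 and a median of 0.36 against 0.00 for all genes. These 8 include NDUFA4L2, which met the minimum only through its knockdown library. Among the 7 targets averaging at least 5 CPM there, the median was 0.35. In LNCaP 10 of the 12 were measured, with ratios from 0.33 to 1.18 and a median of 0.89 against 0.11. In that line the median was 0.75 after centring on the line median. All of the measured targets lay above the median of their line, although the counting interval of NDRG1 in C4-2B ENZR includes 0.

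**Figure D2:**
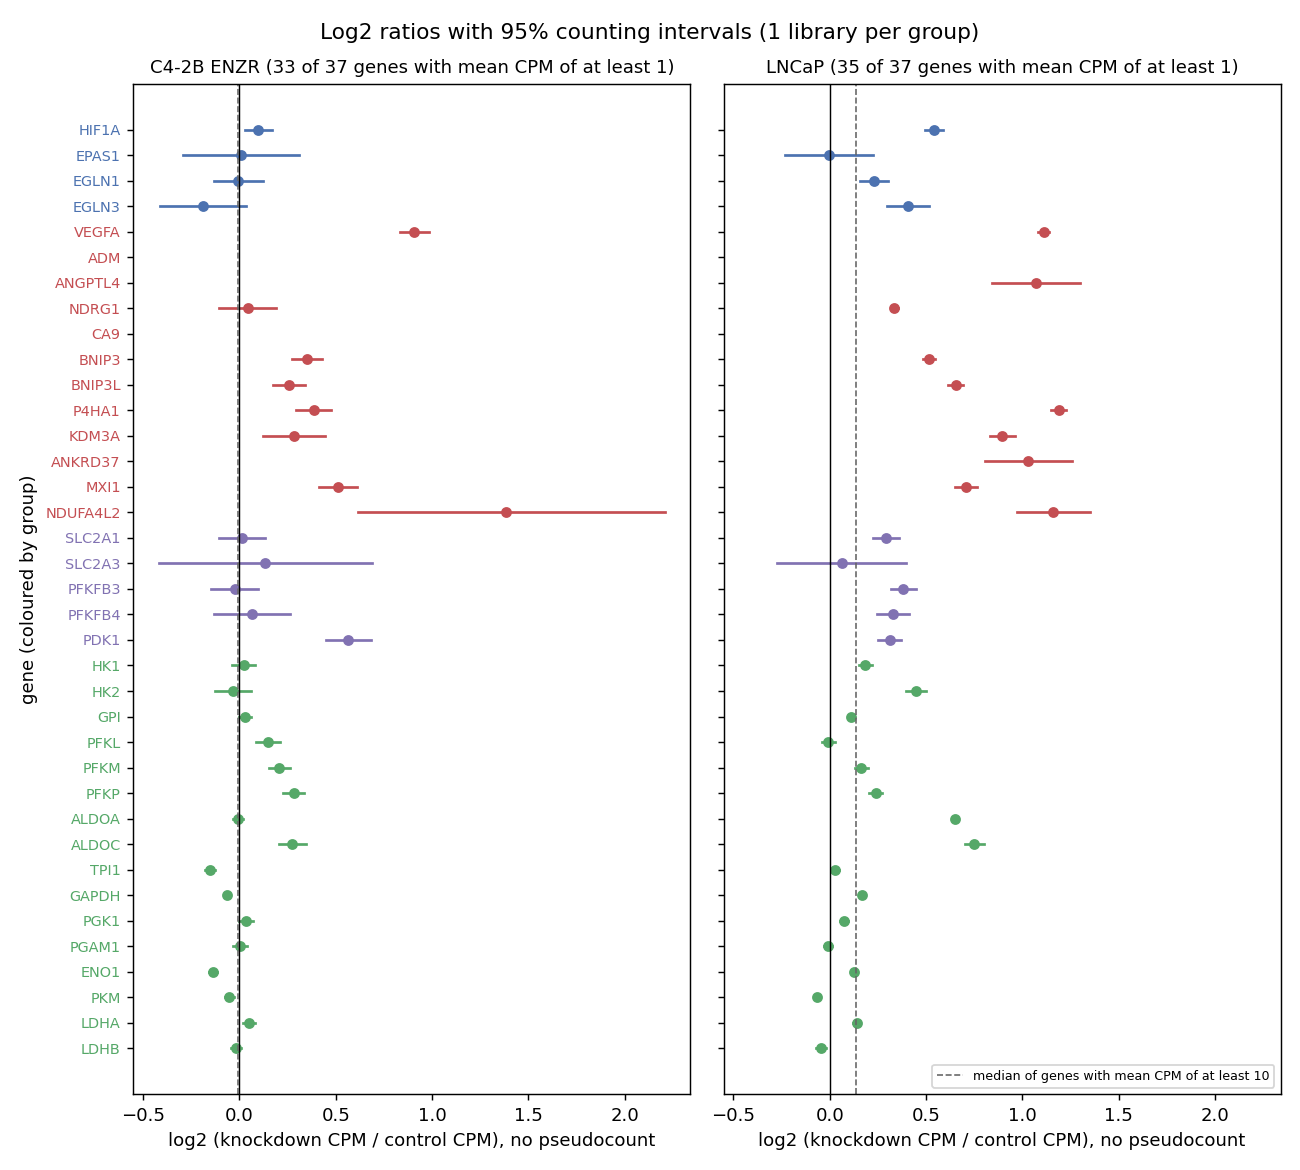
Log2 ratio of knockdown to control CPM without pseudocount (x axis, log2 units) for each gene with a mean of at least 1 CPM, with 95% counting intervals, in C4-2B ENZR (33 genes) and LNCaP (35 genes). Points are coloured by role, the solid line is equality and the dashed line is the median of genes with a mean of at least 10 CPM (0.13 in LNCaP), and the targets (red) lie to the right of it in both panels.

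With a 1.5-fold difference as the mark, 2 genes were higher in C4-2B ENZR, VEGFA and NDUFA4L2, of 33 measured, and 1.59% of all 13806 genes passed that mark. NDUFA4L2 met the 1 CPM minimum there only through its knockdown library, and among genes averaging at least 5 CPM VEGFA was the 1 gene past the mark. In LNCaP 10 of 35 measured genes were 1.5-fold higher: VEGFA, ANGPTL4, BNIP3L, P4HA1, KDM3A, ANKRD37, MXI1, NDUFA4L2, ALDOA and ALDOC. Of all 13783 genes in LNCaP 4.98% were 1.5-fold higher. After centring on the line median 7 of the genes and 2.34% of all genes were, with BNIP3L, MXI1 and ALDOA no longer past the mark. None of the 37 was 1.5-fold lower in either line, where 0.963% of all genes in C4-2B ENZR and 1.57% in LNCaP were.

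Of the genes that set glucose entry and the direction of flux, PDK1 alone passed. PDK1 encodes a kinase that switches off pyruvate dehydrogenase and so keeps pyruvate from the mitochondria. It was at 39.5 to 58.4 CPM in C4-2B ENZR (log2 ratio 0.55, interval 0.45 to 0.68) and at 78.2 to 97.0 CPM in LNCaP (0.31, interval 0.25 to 0.37, and 0.17 relative to the median). PDK1 rose in limma (mean 0.43, adjusted p = 0.0169) but not in edgeR with recomputed TMM (0.102) or with the libraries rescaled to the same sum (limma adjusted p = 0.0793), without the trended prior (limma adjusted p = 0.0824) or in DESeq2 (adjusted p = 0.197). Its ratio was higher in C4-2B ENZR than in LNCaP. For NDUFA4L2 the order of the lines depended on the pseudocount (0.78 and 1.04 with it, 1.39 and 1.16 without). The counting intervals of NDUFA4L2 overlap (0.62 to 2.21 and 0.97 to 1.35), so its ratios cannot be told apart between the lines.

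SLC2A1, the gene of the glucose transporter GLUT1, was at 47.7 to 48.1 CPM in C4-2B ENZR and 58.5 to 71.6 CPM in LNCaP. SLC2A3, the gene of GLUT3, was low at 2.22 to 2.44 CPM and 2.78 to 2.91 CPM, and 22.8% of its 50-base words recur in genes of the tables, chiefly SLC2A14 (at most 0.327 CPM). Neither transporter passed (limma adjusted p = 0.565 and 0.890). PFKFB3 and PFKFB4 encode the kinases that make fructose 2,6-bisphosphate, the activator of phosphofructokinase. PFKFB3 was at 44.3 to 43.5 CPM in C4-2B ENZR and 63.8 to 83.1 CPM in LNCaP (0.38, or 0.24 relative to the median), and PFKFB4 at 17.1 to 17.9 CPM and 39.1 to 49.2 CPM (0.32, or 0.19). In C4-2B ENZR the 4 genes other than PDK1 had ratios whose counting intervals include 0. In LNCaP SLC2A1, PFKFB3 and PFKFB4 had intervals above 0, as did 6773 of all 13783 genes in that shifted table.

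The 16 glycolytic enzymes lay close to the rest of the transcriptome. Their summed level was 12855 to 12556 CPM in C4-2B ENZR (log2 ratio -0.03) and 15153 to 17338 CPM in LNCaP (0.19, or 0.10 without ALDOA). As a share of recovered reads they took 1.35% to 1.30% for C4-2B ENZR and 1.64% to 1.63% for LNCaP. Their median log2 ratio was 0.01 for C4-2B ENZR and 0.13 for LNCaP, and in the latter 8 enzymes lay above and 8 below the line median. Of the 16, 1 rose and none fell, and 2 rose at unadjusted p below 0.05.

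Both aldolases, which split fructose 1,6-bisphosphate, were higher in LNCaP. ALDOA was at 2197 to 3448 CPM in LNCaP (log2 ratio 0.65, interval 0.64 to 0.66, and 0.52 relative to the median) but at 882 to 877 CPM in C4-2B ENZR. It did not pass over both lines (limma adjusted p = 0.386), 58.9% of its 50-base words recur in AC093512.2 or ALDOAP2, 2 genes the tables do not list by those names, and in LNCaP it went from 14.5% to 19.9% of the summed CPM of the 16 enzymes. ALDOC, the brain-type aldolase, was at 128 to 155 CPM in C4-2B ENZR (0.27, interval 0.21 to 0.34) and at 98.8 to 166 CPM in LNCaP (0.74, interval 0.70 to 0.80). ALDOC was thus higher in both and rose (mean 0.51, SE 0.13, limma adjusted p = 0.00303), with adjusted p = 0.0522 in edgeR with recomputed TMM.

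At the entry of the pathway, HK1 and HK2 encode the hexokinases that trap glucose in the cell. HK1 was at 183 to 186 CPM in C4-2B ENZR and 261 to 297 CPM in LNCaP. HK2 was at 78.8 to 77.0 CPM in C4-2B ENZR and 91.3 to 125 CPM in LNCaP (log2 ratio 0.44, or 0.31 relative to the median). HK2 did not pass (limma adjusted p = 0.373), and its share of hexokinase reads was 25.9% in the control and 29.6% in the knockdown of LNCaP against 30.1% and 29.3% in C4-2B ENZR. GPI, the phosphoglucose isomerase gene, was at 667 to 679 CPM and at 1228 to 1328 CPM.

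The phosphofructokinase genes encode the liver, muscle and platelet forms of the enzyme of the committed step. PFKP was at 194 to 236 CPM in C4-2B ENZR (log2 ratio 0.28) and 221 to 261 CPM in LNCaP (0.24, or 0.10 relative to the median). PFKM was at 208 to 240 CPM and at 228 to 256 CPM, and PFKL at 157 to 174 CPM and at 257 to 255 CPM. None passed (limma adjusted p = 0.253 for PFKP, 0.474 for PFKM and 0.835 for PFKL). PFKP's share of the reads of the 3 genes went from 34.7% to 36.3% in C4-2B ENZR and from 31.3% to 33.8% in LNCaP, and its 95% Clopper-Pearson intervals do not overlap in either line.

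In the lower part of the pathway the ratios were small. GAPDH, often used as a reference gene, was at 3754 to 3591 CPM in C4-2B ENZR (log2 ratio -0.06) and 3338 to 3745 CPM in LNCaP (0.17, or 0.03 relative to the median). ENO1, an enolase gene, was at 1493 to 1357 CPM and at 1784 to 1948 CPM, and the triose phosphate isomerase gene TPI1 at 1004 to 902 CPM and at 814 to 830 CPM. The phosphoglycerate kinase gene PGK1 was at 454 to 465 CPM in C4-2B ENZR and 749 to 788 CPM in LNCaP. PGAM1, a phosphoglycerate mutase gene, was at 518 to 518 CPM and at 745 to 739 CPM. Of its 50-base words 43.1% recur in another GENCODE gene, most of all in AC012085.1, which the tables do not list by that name. A share of 19.3% recurs in PGAM4 or PGAM1P5, which were at most at 0.691 CPM. The pyruvate kinase gene PKM was at 1384 to 1336 CPM and at 1667 to 1591 CPM. Adjusted limma p-values of these 6 genes ran from 0.892 for TPI1 to 0.993 for ENO1.

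Lactate dehydrogenase joins the products of LDHA and LDHB, whose proteins favour pyruvate to lactate and the reverse, respectively. LDHA was at 766 to 793 CPM in C4-2B ENZR and 1012 to 1115 CPM in LNCaP, and LDHB at 984 to 971 CPM and at 461 to 447 CPM (44.3% of LDHB's 50-base words recur in AC010197.2 or LDHBP2). Neither gene passed (limma adjusted p = 0.832 and 0.945). The share of LDHA in their reads was 43.8% in the control (95% Clopper-Pearson interval 43.3 to 44.2) and 44.9% in the knockdown (44.5 to 45.4) of C4-2B ENZR, and 68.7% (68.4 to 69.0) and 71.4% (71.1 to 71.7) in LNCaP. The share was higher in both knockdowns by more than counting error, a small step in each line, and a share does not depend on the scaling of the tables. ALDOC's share of aldolase reads was likewise higher in both, at 12.7% to 15.01% for C4-2B ENZR and at 4.30% to 4.60% for LNCaP. EPAS1's share of HIF1A and EPAS1 reads was 5.54% to 5.23% for C4-2B ENZR and 5.18% to 3.61% for LNCaP.

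**Figure D3:**
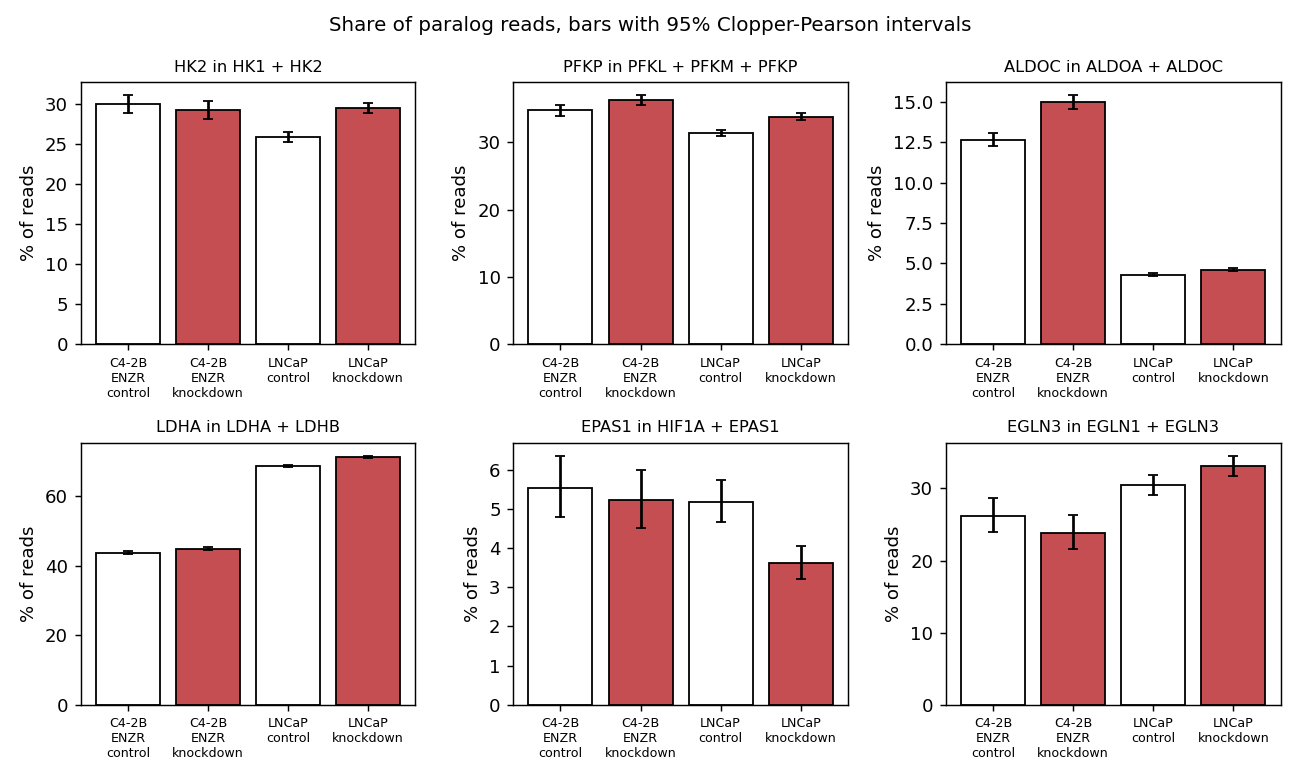
Share of reads (%) taken by 1 paralog of a family in each library, as bars from 0 with 95% Clopper-Pearson intervals, which cover counting error only (open bars control, red bars knockdown). LDHA in LDHA + LDHB, ALDOC in ALDOA + ALDOC and PFKP in its family are higher in the knockdown of both lines, and in LNCaP HK2 is higher and EPAS1 lower.

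Other hypoxia-inducible genes were read from a list of 36 that holds none of the 37, of which 30 could be tested. In limma 6 rose and none fell (12 and 2 at unadjusted p below 0.05; edgeR with recomputed TMM, 5 and 0), and after centring 6 rose and TFRC fell (adjusted p = 0.0118). DDIT4, an inhibitor of mTORC1, was at 119 to 465 CPM in C4-2B ENZR and 394 to 785 CPM in LNCaP. The others were STC2, a secreted glycoprotein gene (mean log2 0.56), the transcription repressor gene BHLHE40 (0.56, from 0.06 and 1.06), the lipoprotein receptor gene VLDLR (0.75), the GTPase gene RRAGD (0.65) and the haem oxygenase gene HMOX1 (0.72). The BHLHE40 call was lost in edgeR with recomputed TMM (adjusted p = 0.108). Among genes averaging at least 5 CPM the lowest mean ratio was that of TFRC, the transferrin receptor gene (806 to 757 CPM, and 282 to 196 CPM; limma adjusted p = 0.212). The list's median log2 ratio was 0.10 in C4-2B ENZR (31 genes measured) and 0.30 in LNCaP (34 genes).

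Beyond the core enzymes, none of 8 tested isozyme and bypass genes passed, the highest mean ratio among those averaging at least 5 CPM being that of PFKFB2 (86.8 to 81.9 CPM, and 33.6 to 45.7 CPM) and the lowest that of C12orf5, which encodes the fructose bisphosphatase TIGAR (42.7 to 38.4 CPM, and 14.5 to 15.6 CPM). No gene of this list passed at unadjusted p below 0.05, nor in edgeR with recomputed TMM. Of 15 tested genes of pyruvate and lactate handling 1 rose and 1 fell, and after centring a further gene, DLAT, fell (limma adjusted p = 0.0178). PCK2, the mitochondrial phosphoenolpyruvate carboxykinase gene, rose (73.9 to 154 CPM, and 199 to 277 CPM; limma adjusted p = 1.09e-06). PDP2, a phosphatase gene that opposes the PDK kinases, fell (60.2 to 37.7 CPM, and 49.6 to 43.1 CPM; limma adjusted p = 0.0218). None of 7 pentose phosphate genes passed (1 rose at unadjusted p below 0.05 and none in edgeR with recomputed TMM), from PGLS as the highest mean ratio (0.37) to TALDO1 as the lowest (-0.10).

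**Figure D4:**
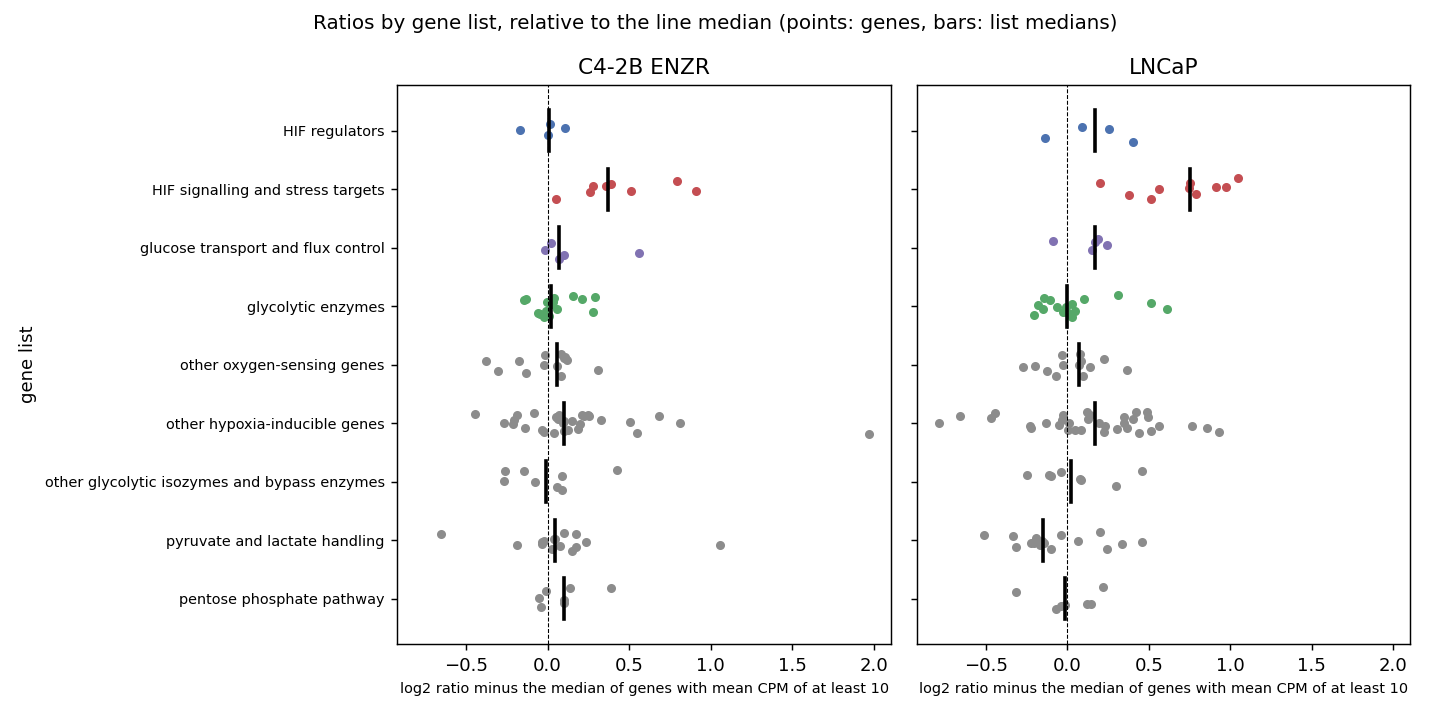
Log2 ratio of each gene with a mean of at least 1 CPM, minus the median of genes with a mean of at least 10 CPM in that line, by gene list (points are genes, spread vertically at random within a list, and black bars are list medians). Of the 9 lists drawn, the signalling and stress targets have the rightmost median in both lines, and the median of the glycolytic enzymes lies near 0.

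Other gene lists were read beside these targets. Targets of ATF4, the transcription factor of the amino acid response, were mostly higher in both knockdowns, and immediate early genes mostly in LNCaP. Of 16 ATF4 targets 11 rose (13 after centring, 8 in edgeR with recomputed TMM). Their median log2 ratios were 0.56 in C4-2B ENZR and 0.45 in LNCaP. PHGDH, the most abundant on the list, did not pass at 453 to 555 CPM and at 510 to 585 CPM. VEGFA, DDIT4, STC2, VLDLR and PCK2 are also known to respond to ATF4. Of 12 immediate early genes tested 4 rose (3 after centring, 1 in edgeR with recomputed TMM). In C4-2B ENZR the list's median was 0.04, with 7 of 14 measured genes above 0, as were 6961 of all 13806 genes. In LNCaP the list's median was 0.55 as deposited, without centring. There 10 of 12 measured genes were above 0, as were 9181 of all 13783 genes, and 10 of the 12 also lay above the line median. Of that list MYC was the most abundant in C4-2B ENZR and JUND in LNCaP (299 to 636 CPM). The part of either list in the HIF target values was not tested, and oxygen in the cultures was not measured in these data.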

How the data were processed

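RNA was sequenced from 1 library per group. Per the submitters' processing notes, Bowtie2 2.1.0, RSEM 1.2.15 and edgeR were used with the hg19 build; the annotation is not stated there. The authors deposited TMM-scaled CPM, 1 table per line. For LNCaP, the deposited numbers count as a signal near the CPM scale, because the knockdown column sums to 1064501. Within 0.01 read, 100% of values were whole reads. The 4 rows sharing a symbol were left out.

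The genes and lists were chosen with earlier results of these data known. Ratios used a pseudocount of 1 and a mean of at least 1 CPM. limma 3.58.1 (R 4.3.3; line as block, 1 residual degree of freedom, trended prior) gave the test over both lines at an adjusted p of 0.05. "Rose" and "fell" mean passing it. The labels do not speak of separate cultures, so p-values describe only these samples. The spread behind them is taken mostly from the prior shared by all genes. Tested on simulated counts of 13008 genes for this comparison, limma found 59.6% of 1.5-fold and 97.0% of 2-fold changes (99 genes each). The simulation assumed 1 fixed spread for all genes and the same fold in both lines. Its rates therefore do not apply to genes whose ratios differ between the lines. Alternatives used edgeR 4.0.16 and DESeq2 1.42.0 on recovered reads. Words of 50 bases came from GENCODE v29 transcripts. From the lists outside the 37 genes, those that passed and the highest and lowest mean ratio (at 5 CPM or more in both lines) were named; the promoters shown, DLAT and JUND were chosen after the values were seen.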

Additional observations from a re-analysis of the deposited data

Results flagged for a closer look

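In total 3 enzyme genes had ratios of opposite sign in the lines, each with counting intervals that exclude 0, and the difference between the lines was not tested. TPI1 had log2 ratios of -0.1547 in C4-2B ENZR and 0.028 in LNCaP. GAPDH had -0.0642 and 0.1658. ENO1 had -0.1376 and 0.1267. Relative to the line medians the values were -0.15 and -0.11 for TPI1, -0.06 and 0.03 for GAPDH, and -0.13 and -0.01 for ENO1, so that GAPDH alone kept opposite signs after centring.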

How the results depend on the processing

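With 1 library per group, depth sets only counting error, and genes below 1 CPM were not resolved. The count of genes that rose over both lines was 9 and stayed between 6 and 9 under 8 of 11 alternatives. It was 5 in edgeR with recomputed TMM, 4 in DESeq2 (where 3559 genes, NDUFA4L2 among them, had no adjusted p), and 0 when genes of any level entered, where no gene at all was called. In 5 fits that differ in scaling or tool, VEGFA, P4HA1 and MXI1 rose each time. The 2 genes 1.5-fold higher in C4-2B ENZR became 1 with a pseudocount of 5 or a mean of at least 5 CPM, and 0 at 2-fold. The 10 in LNCaP became 3 at 2-fold and 6 after rescaling to the same sum. Counts of genes that fell or were lower stayed at 0 under all alternatives run. The cause of these moves was not tested except where fewer genes or a larger fold were asked for.

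In C4-2B ENZR each median stayed between the median lower end and the median upper end of its genes' counting intervals. That range is not an interval of the median itself. Medians near 0 could change sign (regulators -0.0185 and enzymes -0.0088 after rescaling). In LNCaP, centring, recomputed TMM and rescaling, in this order, gave 0.17, 0.18 and 0.11 for HIF regulators (0.31 as deposited), 0.75, 0.77 and 0.70 for signalling and stress targets (0.89), 0.17, 0.18 and 0.11 for glucose transport and flux control (0.31), and -0.0012, 0.0066 and -0.068 for glycolytic enzymes (0.13). The median of the enzymes thus changed sign with centring and rescaling. The target median was also 0.65 with a pseudocount of 5 and 0.79 without a filter. For the isozyme shares given above, no near-identical copies of those genes were listed in the tables by symbol, so that alternative was not run. SLC2A3, which shares words with SLC2A14, is not among them. Leaving out a replicate was not possible with 1 library per group, and leaving out a line leaves no residual degrees of freedom.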
